A study of Mus musculus with 12 samples.

Results

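The tumour suppressor p53 is the main transcription factor that acts when radiation breaks DNA, and 10 of its best known mouse target genes were followed here in cells sorted as hematopoietic stem cells (HSCs). The genes were listed by name, namely Mdm2, Ccng1, Trp53inp1, Cdkn1a, Bax, Bbc3, Phlda3, Zmat3, Sesn2 and Eda2r, and all 10 were found among the 31272 gene names of the files. The cells came from the bone marrow (BM) of wild-type (WT) mice, a genotype shared by all groups, and RNA was sequenced in 12 libraries, 3 in each of 4 groups. The groups were labelled Ctrl, IR (ionizing radiation), Ab_IR and L_IR, with cells taken 3 days after IR. The labels do not spell out what Ab and L are, and give no age, dose or pooling of the mice, so both names are used as given. By the study's methods the mice were C57BL/6 and the sorted cells were negative for lineage markers, Flt3 and CD34 and positive for Sca-1 and c-Kit.

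When DNA is broken, the kinases ATM and CHK2 phosphorylate p53, which frees it from the ubiquitin ligase MDM2 and lets it bind its response elements. It then switches on genes that stop the cell cycle, genes that open the mitochondrial route to cell death, and genes such as Mdm2 that lower p53 again, so that the response comes in pulses and fades. HSCs are known for a p53 response that weighs arrest and repair against death, and the balance of p21 and PUMA, the products of Cdkn1a and Bbc3, is a textbook part of how irradiated marrow fares. Because MDM2 acts on the p53 protein, the level of the Trp53 transcript is not a measure of p53 activity.

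The response element itself can be read in the promoters of some of these genes, and it is shown here because it is the sequence that p53 is known to bind. RefSeq promoter windows on GRCm38.p6, from 250 bases before to 50 bases after a gene's start, were at hand for 8 of the 10 genes, Zmat3 and Trp53inp1 being the others. They were searched for the p53 consensus, a pair of 10-base half-sites set side by side with no spacer, on both strands, which read alike since the consensus is a palindrome. The core C and G of each half-site had to be kept. The element is in capitals and its flanks are in lower case.
Cdkn1a, chr17:29090888-29090978, plus strand: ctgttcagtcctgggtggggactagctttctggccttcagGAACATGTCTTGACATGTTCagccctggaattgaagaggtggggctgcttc
Ccng1, chr11:40755422-40755521, minus strand: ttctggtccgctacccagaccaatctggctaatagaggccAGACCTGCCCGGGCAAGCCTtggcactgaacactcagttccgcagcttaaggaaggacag
Bbc3, chr7:16309446-16309545, plus strand: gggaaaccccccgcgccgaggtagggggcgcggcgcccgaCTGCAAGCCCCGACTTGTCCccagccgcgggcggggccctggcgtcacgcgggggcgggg

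The elements of Cdkn1a and Ccng1 each departed from the consensus at 1 position, and that of Bbc3 at 3. Among all 27025 genes with such a window, 22 (0.0814%) held a match with at most 1 mismatch and 441 (1.63%) held a match with at most 3. The Cdkn1a element lay 31 bases upstream of the start of the window it was found in, which is the upstream start of 2 that RefSeq lists. In Ccng1 it lay 175 bases upstream of the only start listed and in Bbc3 77 bases upstream of its nearest start. A match is a description of the letters, and a window without a match says only that these letters were not in it.

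Values were FPKM, that is, fragments per kilobase of transcript scaled to library size, so levels of different genes can be set side by side. They carry no read counts, and the depth behind each value is therefore unknown. The sum of FPKM was 344338 to 405123 per library. The markers of the sort moved with the groups. Kit averaged 23.5 FPKM in Ctrl, and it was at 6.87 FPKM in IR, at 18.2 FPKM in Ab_IR and at 17.9 FPKM in L_IR, while Ly6a, which encodes Sca-1, averaged 35.1, 58.6, 38.1 and 45.6 FPKM in the same order. The stem cell genes Slamf1, Mecom, Hoxb5 and Fgd5 stayed under 1 FPKM in all 12 libraries. Marker genes of other blood cells were abundant, among them the neutrophil gene Mpo at 2859 FPKM or more and the immunoglobulin gene Igkc at 9409 FPKM or more. In RNA from a bulk sample, fewer cells of a type and less RNA per cell cannot be told apart. Ctrl replicate 1 stood apart, since 44.1% of its rows were at 0, against 24.7% to 27.3% elsewhere. The libraries also split by transcripts of heart muscle, whose 7 markers summed to 115 to 147 FPKM in the IR libraries and to 0.29 to 0.59 FPKM in Ab_IR and L_IR. Ctrl replicates 2 and 3 were on the side of IR and Ctrl replicate 1 was on the side of Ab_IR and L_IR, so between IR and either of these groups the split and the treatment can be parted only through Ctrl replicate 1.

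Levels of the 10 genes spanned a wide range. Bax, with a mean of 29.8 FPKM over the 12 libraries, and Ccng1, with 29.0 FPKM, were the most abundant. Mdm2 (15.9 FPKM), Cdkn1a (15.1 FPKM) and Trp53inp1 (11.7 FPKM) followed. Sesn2 (4.96 FPKM), Bbc3 (3.12 FPKM), Phlda3 (3.00 FPKM) and Zmat3 (1.12 FPKM) were low, and Eda2r never passed 0.26 FPKM. Differences between groups were tested with limma on log2(FPKM + 1), a scale on which the change of the low genes is understated, and p-values were adjusted by the Benjamini-Hochberg method over all genes tested. Where the text says that groups did not overlap, the share of all genes without overlap was 58.1% for IR against Ctrl, 73.0% and 71.2% for Ab_IR and L_IR against IR, 33.5% and 36.1% for Ab_IR and L_IR against Ctrl, and 51.9% for Ab_IR against L_IR. Nothing in the labels says that the replicates are separate animals, so p-values measure the spread between these libraries only.

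**Figure D1:**
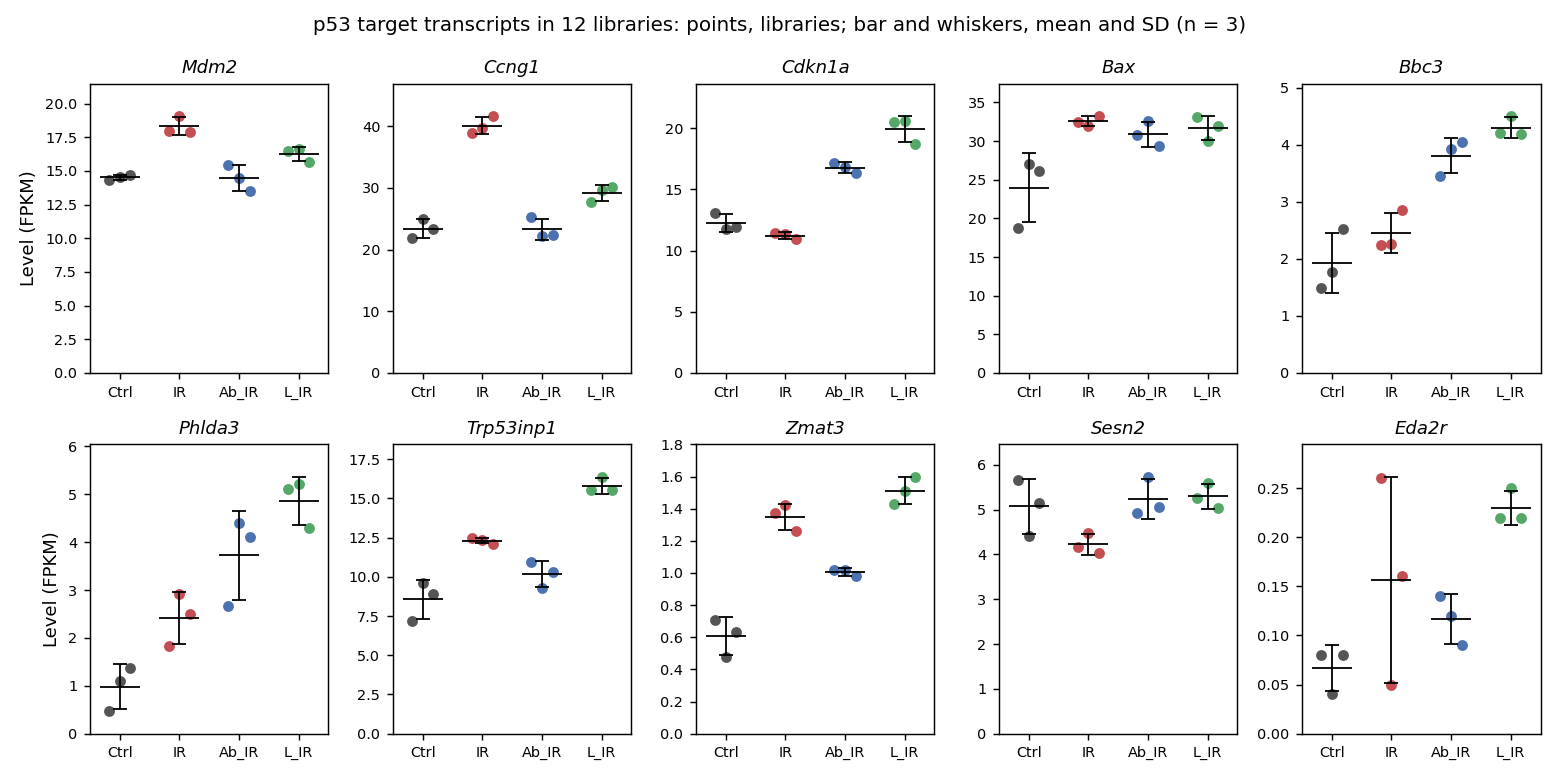
Level of each p53 target gene in FPKM (y axis, from 0) in the 12 libraries by group (x axis), with 1 point per library and the mean and SD of 3 libraries in black. Ccng1 sits at 39.0 to 41.7 FPKM in IR and at 22.2 to 30.1 FPKM in Ab_IR and L_IR, while Cdkn1a sits at 10.9 to 11.4 FPKM in IR and at 16.3 to 20.6 FPKM in Ab_IR and L_IR.

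At 3 days after IR most of the tested p53 targets were higher than in Ctrl, but not all of them. The feedback genes Mdm2 and Ccng1 rose, as did Trp53inp1, Zmat3, Phlda3 and Bax, whereas Cdkn1a, the classic arrest gene, was 0.915 times the Ctrl level and did not pass the test. Of the 9 genes tested, 6 were higher in IR and none was lower at an adjusted p under 0.05, where 43.1% of all 12072 genes tested passed, 17.5% as higher and 25.5% as lower. The median log2 difference of the 9 genes was 0.44, against -0.046 over all genes tested. No gene of the list had a log2 difference above 1 on the log2(FPKM + 1) scale. Of all genes, 7.6% reached that size together with the adjusted p threshold. The means of Phlda3 and Zmat3 in IR were 2.46 and 2.23 times those in Ctrl. With a pseudocount of 0.1, 2 genes of the list passed that size. Zmat3 and Phlda3 passed the filter on low values through their IR libraries. Their part in the count of 6 was therefore favoured by the filter, and Eda2r did not pass it. Without Ctrl replicate 1, 6 genes were again higher and none lower, where 58.4% of all genes passed, and the median of the 9 genes was 0.31. Without IR replicate 2 or 3 the count was 3 higher in each case, with Zmat3 then failing the filter, and the genes that passed among all genes fell from 5199 to 3358 and 3362.

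The Ab_IR libraries differed from IR in almost every gene of the list, but in both directions. Cdkn1a, Bbc3, Phlda3 and Sesn2 were higher in Ab_IR and Ccng1, Mdm2, Trp53inp1 and Zmat3 were lower, with Bax alone of the 9 tested genes short of the threshold. The 8 genes that passed stand against a background of 68.7% of 12067 genes, 39.4% higher and 29.4% lower, so their number is no mark of the list. Under the 3 other scalings the split was 2 or 3 higher and 4 or 5 lower. L_IR gave 7 genes that passed against a background of 66.8% of 12163 genes, 40.8% higher and 26.0% lower. Cdkn1a, Phlda3, Bbc3, Trp53inp1 and Sesn2 were higher in L_IR than in IR, and Ccng1 and Mdm2 were lower. No gene of the list had a log2 difference above 1 in these comparisons or between Ab_IR and L_IR, a size that 7.57%, 6.22% and 0.533% of all genes reached for Ab_IR with IR, L_IR with IR and Ab_IR with L_IR. Phlda3 passed that size with the heart transcript split as a term, at 1.07 in Ab_IR and 1.39 in L_IR. Both comparisons with IR share its libraries, and in both the heart transcript split lies between the groups.

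Set against Ctrl directly, few genes passed in Ab_IR and more did in L_IR. In simulated data with log2 changes of 0.5, the test recovered 16.7% of them for Ab_IR and 33.8% for L_IR against Ctrl. That share was 85.3% and 88.5% for Ab_IR and L_IR against IR. Genes that did not pass against Ctrl, here or in the lists below, are therefore not shown to equal it. In Ab_IR, Phlda3 and Cdkn1a were higher, which is 2 of 8 genes tested, where 2.1% of all 12134 genes passed, 1.45% as higher and 0.651% as lower. In L_IR, Phlda3, Bbc3, Trp53inp1, Cdkn1a and Zmat3 were higher, which is 5 of 9, where 8.84% of all 12251 genes passed, 4.76% as higher and 4.08% as lower. Zmat3 reached the 1 FPKM of the filter in no Ctrl library and Phlda3 in 2, so in these counts both were again favoured by the filter. Phlda3 was also the only gene of the list with a log2 difference above 1, in Ab_IR (0.923% of all genes passed at that size) and in L_IR (2.65%). Compared with L_IR, Ab_IR was lower in 4 of 9 genes, namely Trp53inp1, Zmat3, Ccng1 and Cdkn1a, and higher in none, where 38.0% of 12194 genes passed, 18.2% as higher and 19.8% as lower. Zmat3 reached 1 FPKM in only 2 Ab_IR libraries, so the filter let it in through L_IR here and through IR in Ab_IR against IR, the groups where it was higher. All comparisons with Ctrl share the same 3 Ctrl libraries. Their SD in FPKM is the widest of the 4 groups for Bax, Trp53inp1, Bbc3, Sesn2 and Zmat3. Without Ctrl replicate 1, the count was 3 higher for Ab_IR and 7 higher for L_IR, with 5.65% and 20.3% of all genes passing. No gene of the list passed in Ab_IR without Ctrl replicate 2 or any of Ab_IR replicates 1, 2 and 3, 1 did without Ctrl replicate 3, and in L_IR 3 passed without any of L_IR replicates 1, 2 and 3. All genes that passed fell as well, from 255 to between 59 and 173 where no gene of the list passed in Ab_IR, and from 1083 to between 396 and 414 without an L_IR library.

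**Figure D2:**
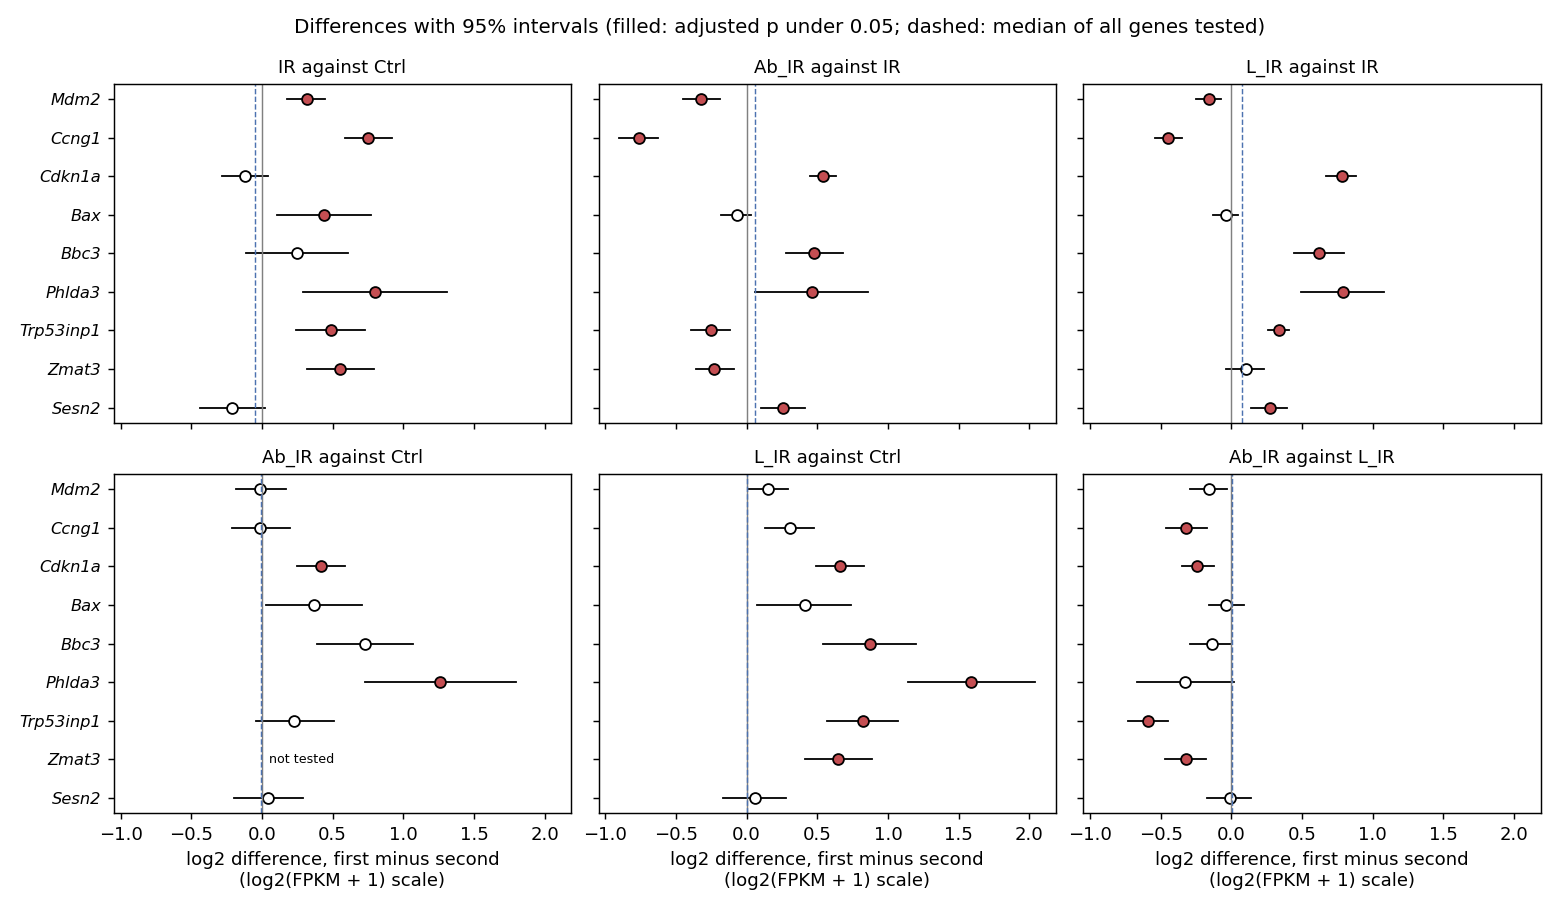
Log2 difference (x axis, on the log2(FPKM + 1) scale, first group minus second) of the 9 tested p53 target genes (y axis) in 6 comparisons, with 95% intervals from limma. Filled points have an adjusted p under 0.05 and the dashed line is the median of all genes tested. In IR against Ctrl 6 points are filled, all on the right, whereas in Ab_IR against IR 4 filled points lie on each side.

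The first set of genes by role are those that feed back on p53. Mdm2 encodes the ubiquitin ligase that marks p53 for degradation (chromosome 10, 117688875 to 117710758, minus strand, GENCODE M21). It was listed at 14.3, 14.5 and 14.7 FPKM in Ctrl and at 17.9, 19.1 and 17.9 FPKM in IR. In Ab_IR it was at 15.4, 14.5 and 13.5 FPKM and in L_IR at 16.5, 16.6 and 15.7 FPKM. The 3 IR libraries were thus above all 9 others, and Ab_IR overlapped with Ctrl. Mdm2 was higher in IR than in Ctrl by 0.32 on the log2 scale (SE 0.0573, adjusted p 0.00587), from 14.5 ± 0.176 to 18.3 ± 0.676 FPKM (SD, n = 3), and lower than IR in Ab_IR (-0.32, SE 0.0546, adjusted p 0.00138) and L_IR (-0.16, SE 0.0380, adjusted p 0.00778). With the heart transcript split as a term, the difference of L_IR from IR no longer passed (-0.14, adjusted p 0.217). Against Ctrl, neither Ab_IR (-0.01, 95% interval -0.18 to 0.17, adjusted p 0.958) nor L_IR (0.15, interval 0.01 to 0.29, adjusted p 0.165) passed. Between Ab_IR and L_IR the difference of -0.16 fell short as well (adjusted p 0.0526), but passed without Ab_IR replicate 1 (-0.20, adjusted p 0.0232) and with median-ratio scaling, quantile normalization, the split term or the filter at a mean of 10 FPKM (-0.18 to -0.16, adjusted p 0.0206 to 0.0398).

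Ccng1 encodes cyclin G1, which brings a phosphatase to MDM2 and so keeps p53 low (chromosome 11, 40748552 to 40755311, minus strand), and its promoter holds an element printed above. Its levels were 21.9, 25.0 and 23.4 FPKM in Ctrl, 39.0, 39.6 and 41.7 FPKM in IR, 25.3, 22.2 and 22.3 FPKM in Ab_IR and 27.7, 29.7 and 30.1 FPKM in L_IR. IR was clear of every other library, Ab_IR lay within or next to the range of Ctrl, and L_IR lay between. The IR mean of 40.1 ± 1.42 FPKM was 1.71 times that of Ctrl, 23.4 ± 1.55 FPKM (log2 difference 0.75, SE 0.0696, adjusted p 0.000408). Both further groups were lower than IR, Ab_IR by a log2 difference of -0.76 (SE 0.0572, adjusted p 2.17e-05) and L_IR by -0.45 (SE 0.0408, adjusted p 8.12e-05). Ab_IR was also lower than L_IR (-0.32, SE 0.0599, adjusted p 0.00628). From Ctrl, Ab_IR differed by -0.01 (interval -0.21 to 0.20, adjusted p 0.965) and L_IR by 0.31 (adjusted p 0.0515), which passed when Ctrl replicate 1 was left out (0.26, adjusted p 0.0259), in a single fit of all 12 libraries (adjusted p 0.00718), with the heart transcript split as a term (0.40, adjusted p 0.00189), with quantile normalization (adjusted p 0.0485) and among genes averaging 10 FPKM or more (adjusted p 0.0387).

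Trp53inp1 encodes a stress protein that helps p53 towards its death targets and takes part in autophagy (chromosome 4, 11156431 to 11174379, plus strand). Levels were 7.20, 9.58 and 8.88 FPKM in Ctrl, 12.5, 12.3 and 12.1 FPKM in IR, 10.9, 9.31 and 10.3 FPKM in Ab_IR and 15.5, 16.4 and 15.5 FPKM in L_IR. Unlike Mdm2 and Ccng1, this gene was highest in L_IR, whose libraries were above all others. It rose from Ctrl to IR (0.49, SE 0.103, adjusted p 0.0103) and was higher again in L_IR than in IR (0.34, SE 0.0329, adjusted p 0.000111, or 0.65 and 0.000285 with the heart transcript split as a term). Ab_IR was lower than IR (-0.25, SE 0.0577, adjusted p 0.00575), a call that ended with that term, where the value was 0.06 (adjusted p 0.594). Between Ab_IR and L_IR the difference was the widest of the list, at -0.59 (SE 0.0598, adjusted p 0.00049), and it carries no such split. L_IR was at 1.85 times the Ctrl mean (0.82, SE 0.104, adjusted p 0.00549), while Ab_IR did not pass against Ctrl (0.23, interval -0.04 to 0.51, adjusted p 0.287) except with the split as a term (0.44, adjusted p 0.000728).

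Cell cycle arrest is the work of Cdkn1a, which encodes the CDK inhibitor p21 (chromosome 17, 29090976 to 29100727, plus strand). It was listed at 13.1, 11.7 and 11.96 FPKM in Ctrl, 11.4, 11.3 and 10.9 FPKM in IR, 17.2, 16.8 and 16.3 FPKM in Ab_IR and 20.5, 20.6 and 18.7 FPKM in L_IR. The IR libraries were the lowest of all 12, narrowly below Ctrl, and the Ab_IR and L_IR libraries were above both. The IR mean of 11.2 ± 0.259 FPKM against 12.3 ± 0.739 FPKM in Ctrl gave a log2 difference of -0.12 (interval -0.28 to 0.04, adjusted p 0.202). That interval leaves out a rise of the size seen for Mdm2. Cdkn1a was higher than IR in Ab_IR (16.8 ± 0.447 FPKM, log2 difference 0.54, SE 0.0387, adjusted p 1.73e-05) and in L_IR (19.96 ± 1.05 FPKM, 0.78, SE 0.0432, adjusted p 7.16e-06). With the heart transcript split as a term these values were 0.40 (adjusted p 0.00114) and 0.64 (adjusted p 6.86e-05). Cdkn1a was higher than Ctrl in L_IR (0.66, SE 0.0726, adjusted p 0.00312) and in Ab_IR (0.42, SE 0.0715, adjusted p 0.0383). The latter call was lost without any of Ctrl replicates 2 and 3 and Ab_IR replicates 1, 2 and 3 (0.39 to 0.44, adjusted p 0.0853 to 0.235) and with the replicate number as a block (adjusted p 0.144). It was also lost with libraries scaled to a fixed sum (0.30, adjusted p 0.137), without the filter (adjusted p 0.0672) and without the variance trend (adjusted p 0.0514). Ab_IR was lower than L_IR (-0.24, SE 0.0480, adjusted p 0.00814). An antisense gene overlaps 273 exonic bases of Cdkn1a, and whether the counting used strand is not given in the sources used here, so a small part of the value could belong to it.

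The death genes were Bax, whose product opens the outer mitochondrial membrane, and Bbc3, whose product PUMA frees BAX from its guards. Bax (chromosome 7, 45461697 to 45466898, minus strand) was listed at 18.8, 27.0 and 26.1 FPKM in Ctrl and 32.4, 32.0 and 33.3 FPKM in IR. It was at 30.8, 32.6 and 29.3 FPKM in Ab_IR and 33.2, 30.1 and 31.9 FPKM in L_IR. All 9 libraries of the irradiated groups were above the 3 of Ctrl, and the irradiated groups overlapped with each other. The rise from Ctrl to IR passed (0.44, SE 0.136, adjusted p 0.0396), but did not when any of IR replicates 1, 2 and 3 or Ctrl replicate 3 was left out (0.43 to 0.51, adjusted p 0.0536 to 0.117), with quantile normalization (0.39, adjusted p 0.061) or without the filter (adjusted p 0.0873). Ctrl replicate 1 was the lowest library, and without it the difference was 0.29 (adjusted p 0.00218). Against Ctrl, Ab_IR (0.37, adjusted p 0.212) and L_IR (0.41, adjusted p 0.136) did not pass, although without Ctrl replicate 1 L_IR did (0.25, adjusted p 0.0288). Both passed in a single fit of all 12 libraries (adjusted p 0.0404 and 0.0237) and, with the heart transcript split added to it, at 0.69 (adjusted p 1.56e-05) and 0.72 (adjusted p 1.23e-05). Against IR, Ab_IR gave -0.07 (interval -0.18 to 0.03, adjusted p 0.176) and L_IR gave -0.04 (interval -0.13 to 0.05, adjusted p 0.416). The former passed without Ab_IR replicate 2 (-0.11, adjusted p 0.0494), with median-ratio scaling (-0.10, adjusted p 0.046) and with the fixed sum (-0.16, adjusted p 0.0296), and the latter passed with the fixed sum (-0.13, adjusted p 0.0241). With the heart transcript split as a term both turned to the other direction and passed, at 0.40 (adjusted p 0.00193) and 0.44 (adjusted p 0.00141), values that rest on the low Ctrl replicate 1. Gm45808, a gene on the same strand, shares 192 exonic bases with Bax, so the split of reads between both is uncertain.

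Bbc3 (chromosome 7, 16308393 to 16318205, plus strand) was listed at 1.49, 1.77 and 2.52 FPKM in Ctrl, 2.25, 2.26 and 2.86 FPKM in IR, 3.46, 3.93 and 4.05 FPKM in Ab_IR and 4.20, 4.51 and 4.19 FPKM in L_IR. IR overlapped with Ctrl, while Ab_IR and L_IR were above both and did not overlap with each other. IR against Ctrl did not pass (0.25, interval -0.11 to 0.61, adjusted p 0.227), but did with quantile normalization (0.43, adjusted p 0.0454). Bbc3 was higher than IR in Ab_IR (0.48, SE 0.0857, adjusted p 0.00178) and in L_IR (0.62, SE 0.0766, adjusted p 0.000354). These became 0.81 (adjusted p 0.00236) and 0.95 (adjusted p 0.00109) with the heart transcript split as a term. L_IR reached 2.23 times the Ctrl mean (0.87, SE 0.136, adjusted p 0.0127), a call lost without Ctrl replicate 2 or any of the 3 L_IR replicates (0.84 to 0.89, adjusted p 0.0513 to 0.0756). Ab_IR against Ctrl, at 0.73, did not pass (adjusted p 0.0625) but did without Ctrl replicate 1 (0.62, adjusted p 0.0323) and without Ctrl replicate 3 (0.87, adjusted p 0.0390). It also passed with quantile normalization (0.74, adjusted p 0.045), in a single fit of all 12 libraries (adjusted p 0.00316) and with the heart transcript split as a term (0.95, adjusted p 0.000225). Ab_IR and L_IR did not differ by the test (-0.14, interval -0.29 to 0.0045, adjusted p 0.113).

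The remaining genes act on survival signals, RNA and metabolism. Phlda3, whose small lipid-binding product competes with AKT at the membrane (chromosome 1, 135766119 to 135769136, plus strand), was listed at 0.47, 1.11 and 1.37 FPKM in Ctrl and 1.84, 2.92 and 2.49 FPKM in IR. It was at 2.67, 4.40 and 4.11 FPKM in Ab_IR and 5.10, 5.21 and 4.29 FPKM in L_IR. It was the gene of the list that spread most across the groups, with every irradiated library above every Ctrl library. The group means were 0.983 ± 0.463 FPKM in Ctrl, 2.42 ± 0.544 FPKM in IR, 3.73 ± 0.927 FPKM in Ab_IR and 4.87 ± 0.502 FPKM in L_IR. Its difference from Ctrl was 0.80 in IR (SE 0.210, adjusted p 0.0229), 1.26 in Ab_IR (SE 0.224, adjusted p 0.0470) and 1.59 in L_IR (SE 0.187, adjusted p 0.00403). Only the last of these held without each library in turn. The IR call was lost without IR replicate 2 or 3 (0.70 and 0.78, adjusted p 0.0853 and 0.0774) and without the filter (adjusted p 0.0682), and the Ab_IR call without Ctrl replicate 2 or 3 or Ab_IR replicate 1, 2 or 3 (1.16 to 1.43, adjusted p 0.0834 to 0.227), without the filter (adjusted p 0.146), with median-ratio scaling (adjusted p 0.0545) and with a pseudocount of 0.1 (1.90, adjusted p 0.0788). L_IR was higher than IR (0.79, SE 0.124, adjusted p 0.00118). Ab_IR was higher than IR with overlapping groups (0.46, SE 0.171, adjusted p 0.0449), which was lost without IR replicate 1 or 3 or Ab_IR replicate 2 or 3 (0.33 to 0.48, adjusted p 0.0788 to 0.147) and under each of 3 other scalings (0.30 to 0.44, adjusted p 0.0595 to 0.169), without the filter (adjusted p 0.115) and in a single fit of all 12 libraries (adjusted p 0.0684). Its difference from IR was larger with the heart transcript split as a term, at 1.07 (adjusted p 0.00652) in Ab_IR and 1.39 (adjusted p 0.00166) for L_IR. Between Ab_IR and L_IR the interval of -0.67 to 0.02 included no difference (adjusted p 0.117).

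Zmat3 encodes a zinc finger protein that binds RNA and steers splicing (chromosome 3, 32334792 to 32366014, minus strand). It was listed at 0.71, 0.48 and 0.63 FPKM in Ctrl, 1.37, 1.42 and 1.26 FPKM in IR, 1.02, 1.02 and 0.98 FPKM in Ab_IR and 1.43, 1.51 and 1.60 FPKM in L_IR. No group overlapped with another, in the order Ctrl, Ab_IR, IR and L_IR. It was higher than Ctrl in IR (0.55, SE 0.0975, adjusted p 0.00531) and in L_IR (0.65, adjusted p 0.0125, or 0.0679 with the replicate number as a block, 0.0653 with quantile normalization and 0.0501 without the filter). It was lower in Ab_IR than in IR (-0.23, SE 0.0576, adjusted p 0.00958, or -0.37 and 0.0134 with the heart transcript split as a term) and than in L_IR (-0.32, SE 0.0608, adjusted p 0.00594). IR and L_IR did not differ by the test (0.10, interval -0.04 to 0.23, adjusted p 0.172). Ab_IR against Ctrl was not tested, since 2 Ab_IR libraries and no Ctrl library reached the filter of 1 FPKM, which asked for 3.

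Sesn2 encodes a sestrin, which restrains mTORC1 under stress (chromosome 4, 132492032 to 132510501, minus strand). Levels were 5.66, 4.42 and 5.14 FPKM in Ctrl, 4.16, 4.48 and 4.03 FPKM in IR, 4.92, 5.74 and 5.06 FPKM in Ab_IR and 5.25, 5.60 and 5.04 FPKM in L_IR. IR overlapped with Ctrl through a single library and lay below Ab_IR and L_IR. Sesn2 was higher than IR in Ab_IR (0.26, SE 0.0646, adjusted p 0.00955) and L_IR (0.27, SE 0.0527, adjusted p 0.00339). With the heart transcript split as a term these were 0.05 (adjusted p 0.753) and 0.06 (adjusted p 0.689), and with quantile normalization 0.13 in both (adjusted p 0.1 and 0.0558). The fixed sum also ended the call in Ab_IR (0.18, adjusted p 0.0505). IR against Ctrl did not pass (-0.21, adjusted p 0.119), but did without Ctrl replicate 2 (-0.29, adjusted p 0.0386) and in a single fit of all 12 libraries (adjusted p 0.0463). Eda2r, a receptor of the TNF receptor family on chromosome X, was listed at 0.04 to 0.08 FPKM in Ctrl, 0.05 to 0.26 FPKM in IR, 0.09 to 0.14 FPKM in Ab_IR and 0.22 to 0.25 FPKM in L_IR, too low to be tested.

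**Figure D3:**
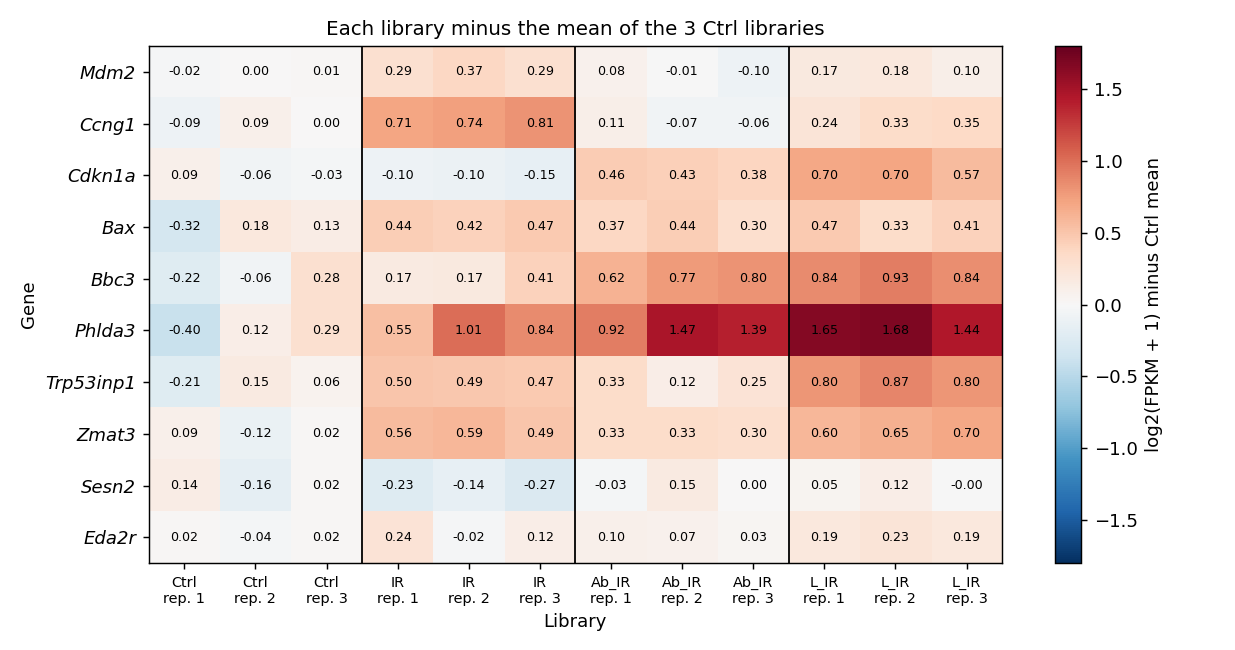
Heat map of log2(FPKM + 1) of the 10 genes (rows) in each library (columns), minus the mean of the 3 Ctrl libraries, with the value in each cell. Mdm2 and Ccng1 are highest in the IR columns (0.29 to 0.37 and 0.71 to 0.81), whereas Cdkn1a is negative there (-0.15 to -0.10) and positive in the Ab_IR and L_IR columns (0.38 to 0.70).

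Across the 12 libraries the 10 genes therefore did not keep a single order of groups. Mdm2 and Ccng1 shared the order Ab_IR, Ctrl, L_IR and IR from low to high, Bbc3 and Phlda3 the order Ctrl, IR, Ab_IR and L_IR, and Trp53inp1 and Zmat3 the order Ctrl, Ab_IR, IR and L_IR. Neighbours in these orders often did not differ, as for Mdm2 and Ccng1 between Ab_IR and Ctrl and for Bbc3 and Phlda3 between Ab_IR and L_IR. Pearson's r of log2(FPKM + 1) over 12 libraries was 0.94 for Mdm2 with Ccng1, 0.94 for Bbc3 with Phlda3 and 0.85 for Zmat3 with Trp53inp1. Cdkn1a had an r of 0.83 with Bbc3 but -0.26 with Mdm2 and -0.37 with Ccng1. These libraries share 4 groups of 3, so r describes mainly the group means. Among the 4754 genes that averaged 10 FPKM or more, those most like Cdkn1a were Igkv17-121, an immunoglobulin variable gene with r 0.988, Cd74, the chaperone of MHC class II, with r 0.985, and Ass1, which makes argininosuccinate, with r 0.961. Those most like Mdm2 were Ganab (r 0.949), a glucosidase of the endoplasmic reticulum, Ccng1 (r 0.945) and Psat1 (r 0.944), an enzyme of serine synthesis. On average Cd74 stood at 91.6 FPKM in Ctrl and 84.4 FPKM in IR, and at 124 FPKM in Ab_IR and 158 FPKM in L_IR, and Ganab at 56.9, 76.8, 56.3 and 65.0 FPKM in the same order.

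Transcripts of other blood cells moved with the same groups. The 10 markers of B and plasma cells, all found, summed to 10200 to 13400 FPKM in Ctrl, to 17800 to 19000 FPKM in IR, to 18100 to 18700 FPKM in Ab_IR and to 25900 to 26700 FPKM in L_IR. That sum was highest in L_IR, as were the means of Cdkn1a, Bbc3, Phlda3, Trp53inp1, Zmat3, Sesn2 and Eda2r. The sum is nearly all Igkc, however, which averaged 24480 FPKM in L_IR. Ighm, Mzb1 and Xbp1 of the same list were higher in IR (323, 62.7 and 200.4 FPKM) than in L_IR (258, 59.0 and 108 FPKM). The 10 markers of neutrophils and monocytes, all found, had their highest sum in IR, at 14300 to 14600 FPKM, against 9250 to 11100 in Ctrl, 10600 to 11100 in Ab_IR and 7490 to 7690 in L_IR. The single genes of that list differed, since S100a9 averaged 3765 FPKM in IR and 1472 FPKM in Ctrl while Csf1r was lower in IR, at 7.88 against 17.0 FPKM, and Camp, Elane and Prtn3 had their highest means in Ab_IR. The sum of erythroid markers (8 of 9 found) was lowest in IR, at 479 to 489 FPKM, against 2480 to 3050 in Ctrl, 2570 to 2770 in Ab_IR and 1340 to 1390 in L_IR. The sums for megakaryocytes (7 of 7) and for mast cells and basophils (6 of 6) were lowest in IR as well, at 15.0 to 17.7 and 84.4 to 86.4 FPKM, against 63.3 to 153 and 216 to 362 FPKM in the other groups. The sum of macrophage markers (7 of 7) was lowest in IR too, at 61.6 to 66.8 FPKM against 84.1 to 98.8 FPKM elsewhere, although Mrc1 of that list had its highest mean in IR (5.84 FPKM) and Cd68 was no lower there than in Ctrl (20.98 and 19.8 FPKM). T and NK cell markers (8 of 8) summed to 166 to 271 FPKM in Ctrl and to 217 to 224 FPKM in IR. In Ab_IR their sum was 282 to 290 FPKM and in L_IR 241 to 250 FPKM. That sum is mostly Nkg7, which averaged 266.4 FPKM in Ab_IR and 214.9 FPKM in L_IR. By contrast, Cd3e, Cd3d, Cd3g, Trac, Cd8a and Ncr1 had their highest means in L_IR, and Cd4 in Ctrl. Trac averaged 2.46 FPKM in IR and 10.3 FPKM in L_IR. No marker of these blood cell lists was at 0 in all libraries of a group, whereas 3 heart muscle markers were at 0 throughout Ab_IR and 4 throughout L_IR. The part of these cell types in the levels of the p53 targets was not tested.

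A wider list of p53 targets, grouped by role and written down by gene name, had more members lower than higher after IR. Of 46 such genes in the files, 43 were tested for IR against Ctrl, 5 were higher (Apaf1, Gtse1, Tigar, Tnfrsf10b and Trp53i11), 20 were lower and 18 did not pass, where 17.5% of all genes passed as higher and 25.5% as lower. Tnfrsf10b reached the filter only through IR, and Epha2, among the lower genes, only through Ctrl, so the direction of both was favoured by the filter. Their median log2 difference was -0.15, against -0.046 over all genes tested, and lower genes outnumbered higher ones under each of 3 other scalings (16 to 19 lower, 4 to 7 higher) and without Ctrl replicate 1 (18 lower, 6 higher). By role, 6 of 9 growth arrest genes were lower and 1 was higher, and 4 of 5 genes that feed back on p53 were lower, groups too small to be read against the shares over all genes. Among death genes 3 of 11 were higher and 3 lower, among repair genes 2 of 7 were lower, and among genes of metabolism and redox 5 of 11 were lower and 1 was higher. Steap3, an iron reductase, fell from 18.6 ± 0.951 to 5.91 ± 0.275 FPKM (log2 difference -1.50, SE 0.0678, adjusted p 3.17e-05). Ddit4, which encodes the mTORC1 inhibitor REDD1, fell from 21.97 ± 3.33 to 9.05 ± 0.426 FPKM (-1.18, SE 0.110, adjusted p 0.000426). Sesn1, a sestrin like Sesn2, fell from 7.84 ± 0.234 to 3.17 ± 0.313 FPKM (-1.08, SE 0.0794, adjusted p 0.000168). Among the higher genes, Tigar rose from 3.08 ± 1.10 to 7.91 ± 0.370 FPKM. It was at 3.32 ± 0.207 FPKM in Ab_IR and 3.72 ± 0.225 FPKM in L_IR.

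Against IR, more of these genes were higher than lower in both Ab_IR and L_IR. Ab_IR had 21 of 43 higher, 8 lower and 14 that did not pass, with a median of 0.12 against 0.061 over all genes, of which 39.4% were higher and 29.4% lower. Epha2, among the higher genes, reached 1 FPKM in no IR library, and Tnfrsf10b, Rrm2b and Ak1, among the lower, in no Ab_IR library, so the filter favoured their directions. With quantile normalization that split was 19 and 11, with a median of 0.02. L_IR had 23 higher and 10 lower, with a median of 0.18 against 0.073 over all genes, of which 40.8% were higher and 26.0% lower. Here too Epha2 entered only through L_IR, and Tnfrsf10b and Ak1 only through IR. Steap3 was higher by 1.52 in Ab_IR (adjusted p 2.88e-07) and by 1.41 in L_IR (adjusted p 6e-07), at 18.8 ± 0.415 and 17.4 ± 0.676 FPKM. Sesn1 differed from IR by 0.87 in Ab_IR (adjusted p 2.83e-05) and by 0.88 in L_IR (adjusted p 1.94e-05), both higher, and Ddit4 was higher by 0.84 in Ab_IR (adjusted p 7.71e-06). Gadd45a, a stress gene that slows the G2 to M step, behaved differently, at 51.7 ± 2.48 FPKM in Ctrl, 52.5 ± 2.34 FPKM in IR, 53.2 ± 1.77 FPKM in Ab_IR and 30.8 ± 1.35 FPKM in L_IR. It was lower in L_IR than in IR (-0.75, adjusted p 9.2e-06) and Ctrl (-0.73, adjusted p 0.00144), and higher in Ab_IR than in L_IR (0.77, adjusted p 4.95e-05).

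Against Ctrl, none of 41 wider targets passed in Ab_IR, where 255 of all genes did by limma and 2533 (20.9%) had an unadjusted p under 0.05. In Ab_IR 10 were higher and 12 lower with the heart transcript split as a term, where 58.8% of all genes passed, and the same counts held in L_IR, where 54.3% did. In L_IR without that term, Epha2 and Trp53i11 were higher and Btg2, Ddit4, Gadd45a and Perp were lower, a split that was 1 higher and 7 lower with libraries scaled to a fixed sum, where 8.84% of all genes passed, or 11.8% with the fixed sum. Btg2, an antiproliferative gene, was lower by -0.60 (adjusted p 0.00334), at 47.6 ± 3.08 FPKM in Ctrl and 30.98 ± 0.539 in L_IR, and Ddit4 by -0.51 (adjusted p 0.0396). Directly between Ab_IR and L_IR, 11 of 41 were higher in Ab_IR and 7 lower, where 18.2% of all genes were higher and 19.8% lower (6 and 7 of 40 with the fixed sum, where 34.5% passed), with Btg2 higher by 0.46 (adjusted p 0.000341) and the kinase gene Plk3 by 0.34 (adjusted p 0.0022).

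**Figure D4:**
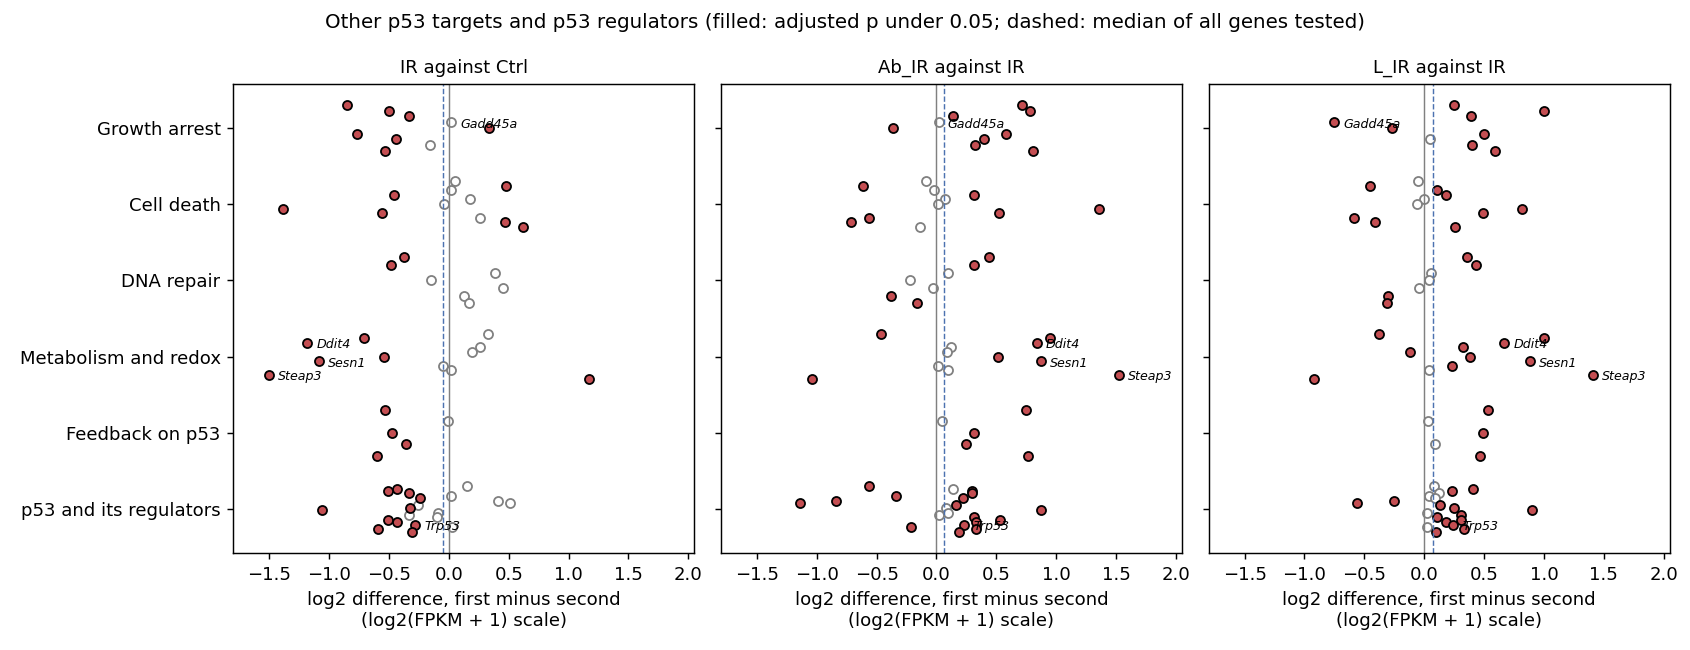
Log2 difference (x axis, log2(FPKM + 1) scale, first group minus second) of wider p53 targets by role and of p53 regulators (y axis), 1 point per gene tested, for IR against Ctrl, Ab_IR against IR and L_IR against IR. Filled points have an adjusted p under 0.05 and the dashed line is the median of all genes tested. Steap3 lies at -1.50 in the left panel and at 1.52 and 1.41 in the others.

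Of 23 genes that act on p53, Trp53 included, 20 were tested for IR against Ctrl. In IR 11 were lower, 9 did not pass and none was higher, where 25.5% of all genes were lower and 17.5% higher, and the median was -0.29. Those that did not pass included Hipk2 (0.51, adjusted p 0.0958) and Ep300 (0.41, adjusted p 0.146), a kinase and an acetyltransferase gene. Without Ctrl replicate 1 the count was 12 lower and 3 higher, where 58.4% of all genes passed. Trp53 was listed at 48.0, 44.4 and 48.5 FPKM in Ctrl and 38.8, 37.6 and 38.95 FPKM in IR, without overlap (-0.28, SE 0.0605, adjusted p 0.0111). In Ab_IR it was at 44.4, 47.3 and 44.5 FPKM and in L_IR at 46.5, 44.7 and 45.7 FPKM, higher than in IR in both (0.23, adjusted p 0.00119, and 0.24, adjusted p 0.000214). Mdm4, the partner of MDM2 that masks p53, fell from 15.3 ± 1.82 FPKM in Ctrl to 11.97 ± 0.0833 FPKM in IR (-0.32, adjusted p 0.0276), and the kinase gene Chek2 from 9.86 ± 0.375 to 7.64 ± 0.521 FPKM (-0.33, adjusted p 0.0112). Chek2 was higher in Ab_IR than in IR (0.30, adjusted p 0.00275), with 0.12 in L_IR (adjusted p 0.111), and Mdm4 was higher in L_IR (0.25, adjusted p 0.000651), with 0.08 in Ab_IR (adjusted p 0.211).

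Atm, the kinase gene that heads the response, was lowest in Ab_IR. It was at 3.77 ± 0.547 FPKM in Ctrl and 4.26 ± 0.141 in IR (0.15, adjusted p 0.272), and at 2.57 ± 0.238 in Ab_IR and 4.54 ± 0.214 in L_IR. The Ab_IR libraries were below all others, lower than IR (-0.56, SE 0.0616, adjusted p 0.000148) and than L_IR (-0.63, SE 0.0640, adjusted p 0.000485). Hipk2 (-1.14), Ep300 (-0.84), Crebbp (-0.34) and Trp53bp1 (-0.21) were lower in Ab_IR than in IR as well, and all 4 were also lower than in L_IR. Over all regulators, 11 were higher and 5 lower in Ab_IR than in IR, and 12 were higher and 2 lower in L_IR than in IR. The shares of all genes were 39.4% higher and 29.4% lower for Ab_IR, and 40.8% and 26.0% for L_IR. With the heart transcript split as a term these counts were 4 higher and 5 lower, and 4 higher and 2 lower, where 63.6% and 56.9% of all genes passed. No regulator passed against Ctrl in Ab_IR or L_IR by limma, where 2.1% and 8.84% of all genes did. With the split as a term 1 was higher and 14 lower in Ab_IR and 1 higher and 11 lower in L_IR, where 58.8% and 54.3% of all genes passed, and with the fixed sum 3 were lower in L_IR (11.8% of all genes passed). Between Ab_IR and L_IR 3 were higher and 7 lower in Ab_IR, where 18.2% of all genes were higher and 19.8% lower.

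Genes that p21 is known to lower through the DREAM complex, which shuts cell cycle promoters, were read as a further list, to which Lin9, Lin37 and Lin54, subunits of the complex itself, also belonged. Of the 20 genes, 4 were higher and 4 lower in IR than in Ctrl, 7 higher and 7 lower in Ab_IR than in IR, and 3 higher and 10 lower in L_IR than in IR (3 and 15 with the fixed sum). Of all genes, 17.5% were higher and 25.5% lower in the first comparison, 39.4% and 29.4% in the second and 40.8% and 26.0% in the third (66.4% passed there with the fixed sum). Against Ctrl, none passed in Ab_IR and Lin9 alone was lower in L_IR, where 2.1% and 8.84% of all genes passed. Adding the split as a term gave 7 higher and 7 lower in Ab_IR and 2 higher and 7 lower in L_IR, where 58.8% and 54.3% of all genes passed. Ab_IR had 6 higher and 1 lower than L_IR, where 18.2% of all genes were higher and 19.8% lower. The median over the 20 genes was -0.07 in L_IR against IR, where all genes had 0.073, and stayed negative under 3 other scalings (-0.16 to -0.08) and with the heart transcript split as a term (-0.06).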

How the data were processed

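RNA-seq of 12 libraries was analysed, with groups taken from sample titles. Per the labels, RNA came from sorted cells through a micro-scale column kit, and libraries were stranded and poly(A)-selected. The submitters' processing notes name fastp, HISAT2, StringTie, GRCm38 and mm10, and the study's methods name RSEM and DESeq2. Which of the tools made the files is not settled. The deposited files give 1 value per gene name, taken as FPKM as the authors computed them, since values times exon length in kb summed to 913577 to 945262 per library. As these are not counts, the authors' DESeq2 test was not applied and the depth is unknown.

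limma 3.58.1 in R 4.3.3 (lmFit and trended eBayes) compared 2 groups at a time on log2(FPKM + 1), keeping genes that reached 1 FPKM in 3 or more of the libraries compared, and p-values were adjusted by Benjamini-Hochberg over all genes tested. All adjusted p-values come from limma. The steps were tested on simulated data. The members and lists were chosen with earlier results of these data known. Beside the members, the text names Trp53, Mdm4, Atm and Chek2. From the wider targets it names the 3 with the largest change per comparison that passed, did not overlap and averaged at least 5 FPKM over 12 libraries. It also names the genes of counts of 5 or fewer, and gives levels of Tigar, which was below that mean. For Cdkn1a and Mdm2 it names the 3 most alike genes averaging 10 FPKM or more, without predicted-gene names. Other regulators, single blood cell markers and sort markers were named after their values were seen. Positions are GENCODE M21, of which 96.7% of names matched 1 gene. Promoters are RefSeq, GRCm38.p6. Alternatives were another pseudocount, 2 other filters, 3 other scalings, no trend, a single fit of 12 libraries, a replicate block and leaving out each library. The heart transcript split as a term was added after seeing the data. Figures used matplotlib 3.10.9.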

Additional observations from a re-analysis of the deposited data

How the results depend on the processing

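Of 53 tested values of members, 32 passed the threshold and 21 of these kept their direction and call under every alternative in which they were tested, since a stricter filter or a missing library left low genes such as Zmat3, Bbc3 and Phlda3 untested in some. Most exceptions are given beside each gene, and over all members 819 alternative values gave 720 with the same direction and call. The value that passed and turned direction was that of Trp53inp1 in Ab_IR against IR, 0.06 with the heart transcript split as a term. Other turns were of values that had not passed, with this term 0.40 and 0.44 for Bax in Ab_IR and L_IR against IR, -0.04 for Zmat3 in L_IR against IR, 0.01, 0.08 and -0.10 for Mdm2, Ccng1 and Sesn2 in Ab_IR against Ctrl, and -0.08 for Sesn2 in L_IR against Ctrl. With quantile normalization, Bax (0.02) and Zmat3 (-0.13) turned in L_IR against IR, and with the fixed-sum scaling Sesn2 turned in Ab_IR (-0.07) and L_IR (-0.06) against Ctrl. That scaling also moved the median of all genes from -0.004 to -0.118 in Ab_IR against Ctrl and from 0 to -0.115 in L_IR against Ctrl. Leaving out single libraries, values that turned ranged from -0.05 to 0.04 for Mdm2, -0.07 to 0.04 for Ccng1 and -0.04 to 0.11 for Sesn2 in Ab_IR against Ctrl, and for Sesn2 from -0.02 to 0.13 in L_IR against Ctrl and -0.07 to 0.02 in Ab_IR against L_IR.

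Counts of members that passed were least stable for Ab_IR against Ctrl, where the 2 became 1 with a pseudocount of 0.1, a mean of at least 10 FPKM, median-ratio scaling, fixed-sum scaling or no trend, 0 with no filter, 4 with all 12 libraries in a single fit and 5 with the heart transcript split. Phlda3, the member there with a log2 difference above 1, was then absent (0) with the pseudocount, both filters and median-ratio scaling. A mean of at least 10 FPKM, which leaves 5 members to test, gave 4 in Ab_IR against IR, 4 in L_IR against IR and 3 in L_IR against Ctrl, with 0 above 1 in the latter. The pseudocount of 0.1, which weighs low genes more, put 2 members above 1 in IR against Ctrl and 3 in L_IR against Ctrl, and the split put 1, 1 and 3 there in Ab_IR against IR, L_IR against IR and L_IR against Ctrl. Without single libraries, members that passed numbered 3 to 7 for IR against Ctrl, 7 to 8 for Ab_IR against IR, 7 in each case for L_IR against IR, 0 to 3 for Ab_IR against Ctrl, 3 to 7 for L_IR against Ctrl and 4 to 5 for Ab_IR against L_IR, where Zmat3 could also fail the filter through fewer libraries. Those above 1 numbered 0 to 1 and 1 to 2 for Ab_IR and L_IR against Ctrl.

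All genes that passed numbered 5199, 8293, 8124, 255, 1083 and 4628 in the 6 comparisons in the order of the report (IR, Ab_IR and L_IR against Ctrl, IR and IR, then Ab_IR and L_IR against Ctrl, then Ab_IR against L_IR). A mean of at least 10 FPKM, with fewer genes tested, gave 2288 for IR against Ctrl, 3670 and 3624 for Ab_IR and L_IR against IR, 576 for L_IR against Ctrl and 2485 for Ab_IR against L_IR. No filter gave 136 and 713 for Ab_IR and L_IR against Ctrl, a single fit 2343 and 2680 and, for Ab_IR against L_IR, 2465, and the split 7138 and 6648, with 7814 for IR against Ctrl. The cause was not tested. Without single libraries the ranges were 3358 to 6773, 7381 to 7547, 7063 to 7419, 59 to 677, 396 to 2458 and 3209 to 4151. Without filter Eda2r was tested and passed in L_IR against Ctrl (0.21, adjusted p 0.0333) and Ab_IR against L_IR (-0.14, adjusted p 0.0272). Since depth is unknown, how far it limits the genes under 1 FPKM cannot be said.

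Of 18 same-number pairs of libraries, 2 had deviations correlated above 0.1 (-0.282 to 0.244). Pairs with different numbers were not set beside them, so this cannot tell whether replicate numbers pair the libraries. With the replicate block, members that passed numbered 6, 8, 7, 1, 4 and 4, and genes 4295, 8123, 7782, 117, 525 and 3456 in the 6 comparisons.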
